A study of Mus musculus with 16 samples.

Results

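Microglia of the olfactory bulb were compared between female APP-NL-G-F knock-in mice and female WT mice, in the 8 libraries whose titles carry an f, out of 16 libraries in the series. The columns of knock-in replicates 1 to 4 were set against those of WT replicates 1 to 4, and a gene was tested if at least 4 of these 8 libraries held 5 counts or more of it, which left 18474 of 57010 listed genes. WT mice were C57BL/6J. The knock-in mice, on the same background, carry a humanised App gene with 3 mutations of familial Alzheimer's disease (NL is the Swedish, G the Arctic and F the Iberian one) at the mouse locus, so every cell that expresses App carries the changes, not microglia alone. All animals were 2 months old, and no treatment was given to either group. The cells were taken from digested olfactory bulb with magnetic beads against CD11b, a surface protein of microglia that other myeloid cells also carry, and their total RNA was made into stranded libraries after removal of ribosomal RNA. The labels do not say whether replicates of 1 group came from separate mice, so p-values measure the spread between these libraries, which may in part be technical. Both genotypes of male (m) libraries enter only where the f and m contrasts are compared.

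Microglia are the resident macrophages of the brain and clear debris, synapses and axons. When they are disturbed, by injury, by a signal such as ATP or by being taken out of tissue, they switch on immediate early genes within minutes, among them the AP-1 factors of the Fos and Jun families, and then chemokines and cytokines. The olfactory bulb holds densely packed inhibitory interneurons that are renewed throughout life, a rich vasculature and axons that release noradrenaline, and RNA of these cells can accompany microglia through a bead isolation.

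Library totals were 11403667 to 15248323 counts in the knock-in and 9052932 to 17369899 in the WT libraries, and the means differed by 89680 counts (exact permutation test over 70 splits, two-sided p = 0.971). For a gene without any count, the floor of 3 counts corresponds to 0.173 to 0.331 CPM per library and covers counting error only. CPM stands for counts scaled to a common library size, here the total times the TMM factor. Ribosomal RNA genes took 16.6% to 21.0% of the counts in the knock-in and 17.3% to 21.8% in the WT libraries. Xist was at 544 to 851 CPM in the f libraries and at most 0.432 CPM in the m libraries, and Y-linked Ddx3y at most 0.0657 CPM in f against at least 82.6 CPM in m, so the f label was borne out as female. The libraries were not evenly spread. Along the main axis of a principal component analysis (46.3% of the variance), WT replicates 1 and 2 lay far from the knock-in libraries (47.8 and 57.7), WT replicate 3 lay at 17.4, and WT replicate 4, at -1.56, lay nearest to the knock-in range of -48.5 to -21.0. Replicates 1 and 2 carry the lower library numbers in the labels and replicates 3 and 4 the higher ones, so results that rest on replicates 1 and 2 or on replicates 3 and 4 are given for each pair.

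App itself, the modified gene, was at 416, 385, 403 and 386 CPM in knock-in replicates 1 to 4 and at 411, 406, 446 and 401 CPM in WT replicates 1 to 4. The ranges overlapped and App was not called (log2 fold change -0.07 ± 0.06, edgeR adjusted p = 0.56). These are counts of the mouse entry. The authors had added human App to the genome used for alignment, so reads of the humanised part could be counted there. Whether they were was not tested. None of the 16 tested genes of APP and its processing enzymes was called in either direction, with a median log2 fold change of 0.00, against -0.01 over all 18474 genes. The defining markers of microglia did not separate the genotypes either. The 18 homeostatic markers summed to 29864 to 34286 CPM in the knock-in and 29772 to 33430 CPM in the WT libraries, their log2 fold changes ran from -0.13 (Crybb1) to 0.10 (P2ry12, a receptor for ADP), and 0 of 18 were called (median -0.02).

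With edgeR's quasi-likelihood test, and thresholds of 0.1 for the Benjamini-Hochberg FDR and 0.5 for the size of the log2 fold change, 1602 genes were called, 8.67% of those tested. Of these, 709 were higher in the knock-in (3.84%) and 893 were lower (4.83%). Among the genes that fell were immediate early and inflammatory response genes, markers of vessels and astrocytes, and many long non-coding RNAs (lncRNAs). Among those that rose were genes of neurons and synapses and 3 of 18 tested heat shock genes. Of the called genes 315 rose and 529 fell by more than 2-fold, and the median log2 fold change was 0.92 in the higher and -1.10 in the lower genes. In 2364 genes (12.8%) the 4 knock-in libraries lay wholly above or wholly below the 4 WT libraries, 889 above and 1475 below. With each library left out in turn, 179 of the higher and 495 of the lower genes were called in all 8 fits. All fold changes below are log2 values, knock-in over WT, with their standard errors, and sets of 4 levels are in the order of replicates 1 to 4.

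**Figure D1:**
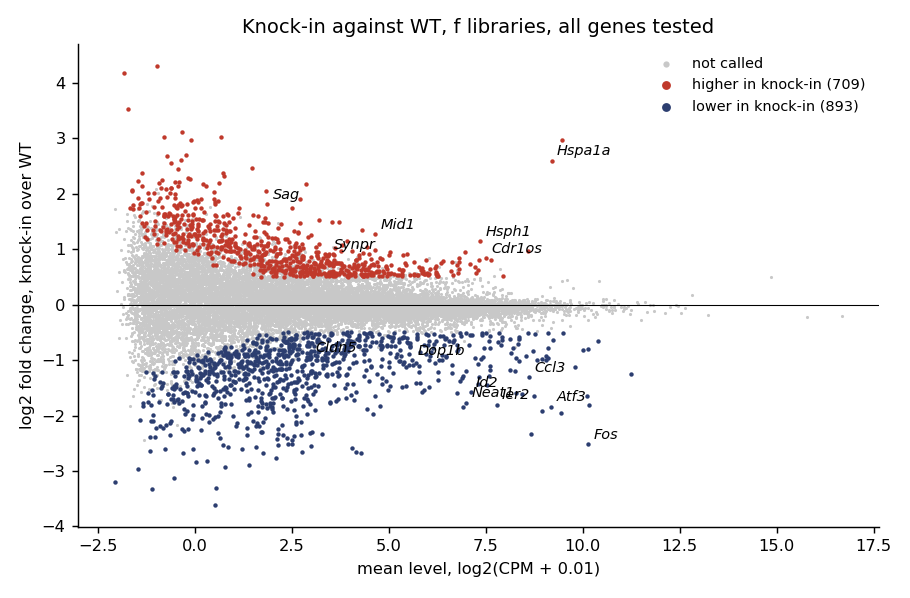
Log2 fold change of knock-in over WT (vertical axis) against the mean level on a log2(CPM + 0.01) axis for all 18474 genes tested, with 709 genes called higher in red and 893 called lower in blue. Called lower genes reach high levels (Fos, Atf3, Ccl3), whereas among abundant genes the largest called increases were those of Hspa1a and its near copy.

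Immediate early genes were lower in the knock-in libraries. Of 58 tested genes in 4 lists of this kind (AP-1 factors, Egr and Nr4a factors, Klf factors, and early feedback genes), 36 fell and 1 rose (Gadd45g, 0.84 ± 0.24), and in 36 the groups did not overlap with the knock-in below. Over all 18474 genes tested, 4.83% were called lower, and in 1475 the knock-in libraries lay wholly below the WT libraries. The median log2 fold change of the 58 early genes was -0.88. It was -0.99 in replicates 1 and 2 alone and -0.81 in replicates 3 and 4 alone, and 34 of the 36 were called lower in all 8 leave-one-out fits.

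The AP-1 proteins bind DNA in pairs and are the textbook early response. Of 10 tested AP-1 genes 8 fell and none rose. Fos was at 219, 375, 208 and 531 CPM in the knock-in libraries and 2440.5, 2636, 1271 and 1313 CPM in the WT libraries (log2 fold change -2.52 ± 0.32, edgeR adjusted p = 0.000955). Knock-in replicate 4 was the highest knock-in library and still below the lowest WT library. Jun, the partner of Fos, was at 1224, 1390.1, 1208 and 1904 CPM in the knock-in libraries and 3625, 3968, 3028 and 3088 CPM in the WT libraries (log2 fold change -1.26 ± 0.14, edgeR adjusted p = 0.000566), without overlap. Atf3, a stress-induced member of the wider family, was at 183, 242, 169.7 and 429 CPM in the knock-in libraries and 870.1, 1036, 882 and 877 CPM in the WT libraries (log2 fold change -1.84 ± 0.24, edgeR adjusted p = 0.000973). For Atf3 WT replicate 2 stood above the other 3 WT libraries, knock-in replicate 4 again stood above the other 3 knock-in libraries, and the groups did not overlap. Fosb (-2.33), Maff (-1.54), Junb (-1.12), Jund (-0.84) and Mafk (-0.73) also fell.

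Of the 7 tested Egr and Nr4a genes, which code for zinc finger and nuclear receptor factors switched on by activity, 3 fell, all of them Egr genes. Egr4 was at 0.98 ± 0.42 and was not called. The list median was -0.65, with -0.01 in replicates 1 and 2 alone and -0.98 in replicates 3 and 4 alone. Egr1 was at 426, 478, 379 and 764 CPM in the knock-in libraries and 2115, 1856, 1688 and 1521 CPM in the WT libraries (log2 fold change -1.81 ± 0.19, edgeR adjusted p = 0.00041). Egr3 was at 27.4, 20.8, 26.7 and 42.02 CPM in the knock-in libraries and 96.7, 64.6, 89.6 and 97.2 CPM in the WT libraries (log2 fold change -1.58 ± 0.18, edgeR adjusted p = 0.000676). In both genes every knock-in library was below every WT library. Egr2 fell as well, from 73.3, 57.4, 79.6 and 91.4 CPM in WT to 29.2, 30.4, 29.1 and 51.04 CPM in the knock-in (log2 fold change -1.11 ± 0.18, edgeR adjusted p = 0.00331), with knock-in replicate 4 far above the other 3. Of the 11 Klf factors 5 fell. Klf4 was at 36.1, 58.5, 36.1 and 80.6 CPM in the knock-in libraries and 228, 281, 129 and 121 CPM in the WT libraries (log2 fold change -1.84 ± 0.30, edgeR adjusted p = 0.00353), and WT replicates 1 and 2 were its highest libraries. Klf2 (-1.38 ± 0.28) and Klf6 (-0.96 ± 0.18) fell too, and Klf2 and Klf4 are also strongly expressed in endothelial cells, whose markers moved with them as described below.

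Early feedback genes, a list of early response genes of which only some code for inhibitors of the response, were lower in 20 of 30 cases. Ier2, a small nuclear protein induced by serum and stress, was at 89.4, 85.2, 77.8 and 140.3 CPM in the knock-in libraries and 383, 356, 336 and 294 CPM in the WT libraries (log2 fold change -1.80 ± 0.16, edgeR adjusted p = 0.000194). Btg2, an antiproliferative factor, was at 211, 281, 227 and 419.8 CPM in the knock-in libraries and 1306, 1298, 913 and 911 CPM in the WT libraries (log2 fold change -1.96 ± 0.20, edgeR adjusted p = 0.00041). Plk3, a kinase of the stress response, was at 27.2, 29.9, 25.9 and 39.4 CPM in the knock-in libraries and 88.5, 88.03, 75.5 and 72.6 CPM in the WT libraries (log2 fold change -1.41 ± 0.12, edgeR adjusted p = 0.000194). For all these genes the highest knock-in library, replicate 4, stayed below the lowest WT library. Zfp36, which destabilises mRNAs of cytokines such as Tnf, fell by the same order (log2 fold change -1.65 ± 0.20, edgeR adjusted p = 0.000752), from 1864, 1719, 1609 and 1523 CPM in WT to 384, 555, 390.1 and 808 CPM in the knock-in. The inhibitors of NF-kappa-B Nfkbia (-0.96) and Tnfaip3 (-0.98), the phosphatase gene Dusp1 (-1.92) and the cytokine signalling suppressor Socs3 (-1.60) were among the other members called lower.

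Knock-in replicate 4 was the highest of the 4 knock-in libraries in 525 of the 893 genes called lower (58.8%), against 24.8% of all genes tested. WT replicate 4 was the highest WT library in 529 of the 709 genes called higher (74.6%), against 28.1% of all genes.

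**Figure D2:**
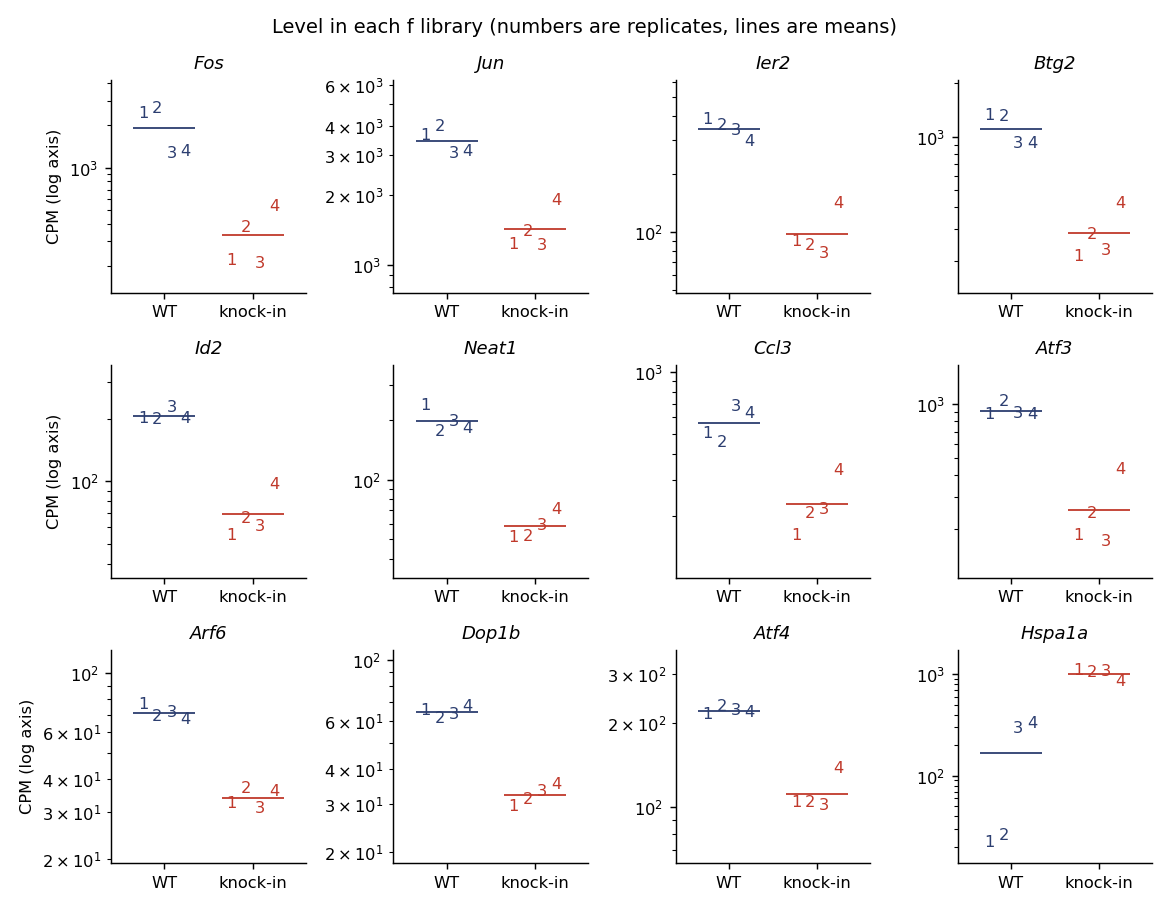
Level of 12 genes in each f library on log axes in CPM, with the replicate number as the symbol, WT in blue, knock-in in red and the group mean as a line. Knock-in replicate 4 is the highest knock-in library for Fos, Ier2, Btg2, Id2, Neat1, Ccl3, Atf3 and Atf4, and WT replicates 1 and 2 lie far below WT replicates 3 and 4 for Hspa1a.

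Many early genes are switched on through the cyclic AMP response element (CRE, bound by CREB) or the CArG box (bound by serum response factor) in their promoters. The 200 bases before the start of the canonical transcript (GRCm39, gencode vM39) were searched on both strands for the CRE in its full palindromic form TGACGTCA, for the AP-1 site TGANTCA and for the CArG box. The letters of the CRE were found in 5 of the 36 early genes called lower (13.9%), in 5 of all 58 early genes tested (8.62%) and in 1.93% of the 13774 tested protein-coding genes. A CArG box was found in 2 of the 36 (5.56%), against 0.944% of all, and the AP-1 site in 1 of the 36 (2.78%), against 3.60%. The motifs do not overlap one another in these windows. Fos has none of the 3 in this exact form in its window. The window of Egr3, with a CArG box 58 to 49 bases before the start, is not shown. Of the other early genes called lower that hold a CRE or a CArG box, 6 windows are shown. They run 5′ to 3′ on the strand of the gene, to show where these letters lie. The CRE (5 genes) or the CArG box (Egr2) is in capitals.
Dusp1: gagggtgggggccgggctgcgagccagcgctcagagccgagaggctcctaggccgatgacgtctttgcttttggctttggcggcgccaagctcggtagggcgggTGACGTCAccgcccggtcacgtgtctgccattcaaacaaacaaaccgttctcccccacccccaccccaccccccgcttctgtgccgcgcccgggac
Ier2: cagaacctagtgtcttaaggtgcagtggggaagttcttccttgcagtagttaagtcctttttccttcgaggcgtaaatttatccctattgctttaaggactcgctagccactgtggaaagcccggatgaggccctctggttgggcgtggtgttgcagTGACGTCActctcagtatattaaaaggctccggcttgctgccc
Maff: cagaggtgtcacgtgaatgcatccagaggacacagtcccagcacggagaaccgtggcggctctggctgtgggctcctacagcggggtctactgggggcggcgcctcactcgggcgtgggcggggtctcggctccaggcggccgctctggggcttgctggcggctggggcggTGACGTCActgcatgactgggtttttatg
Ppp1r15a: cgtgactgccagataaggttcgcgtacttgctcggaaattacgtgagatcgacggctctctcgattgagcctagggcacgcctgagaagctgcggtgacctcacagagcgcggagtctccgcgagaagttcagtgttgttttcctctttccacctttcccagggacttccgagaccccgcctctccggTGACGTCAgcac
Trib1: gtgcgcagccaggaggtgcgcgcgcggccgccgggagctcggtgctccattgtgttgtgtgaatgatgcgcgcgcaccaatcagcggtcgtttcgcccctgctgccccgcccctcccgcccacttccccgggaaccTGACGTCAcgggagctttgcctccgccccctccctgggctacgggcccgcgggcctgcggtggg
Egr2: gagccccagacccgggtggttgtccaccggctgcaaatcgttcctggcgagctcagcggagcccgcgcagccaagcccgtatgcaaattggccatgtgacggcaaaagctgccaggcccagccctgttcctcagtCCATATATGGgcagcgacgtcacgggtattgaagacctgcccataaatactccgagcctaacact
The CRE of Dusp1 (chr17:26727494-26727693, minus strand) ends 89 bases before the start, that of Ier2 (chr8:85389484-85389683, minus strand) 36 bases, that of Maff (chr15:79231520-79231719, plus strand) 22 bases, that of Ppp1r15a (chr7:45175693-45175892, minus strand) 5 bases and that of Trib1 (chr15:59519947-59520146, plus strand) 57 bases. The CArG box of Egr2 (chr10:67373492-67373691, plus strand) ends 56 bases before the start. The log2 fold changes of these 6 genes ran from -0.83 (Trib1) to -1.92 (Dusp1). A match of letters is a description of the window and not a measured binding site.

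Chemokines and inflammatory cytokines fell together with the early genes. Of 20 tested members 13 were called lower and none higher, against 4.83% called lower over all genes tested. The median log2 fold change was -0.88. The sum of the list was 1042 to 1875 CPM in the knock-in and 2023 to 3313 CPM in the WT libraries. By the smallest p, Ccl12, a ligand that attracts monocytes, was first, at 42.9, 50.8, 37.4 and 59.8 CPM in the knock-in libraries and 111, 105, 89.1 and 89.4 CPM in the WT libraries (log2 fold change -1.05 ± 0.13, edgeR adjusted p = 0.000752). Nlrp3, the sensor of the inflammasome, was at 83.1, 111, 82.8 and 132 CPM in the knock-in libraries and 226, 173, 194 and 200.1 CPM in the WT libraries (log2 fold change -0.95 ± 0.14, edgeR adjusted p = 0.00164). Osm, a cytokine of the interleukin 6 family, was at 22.4, 25.97, 24.02 and 37.4 CPM in the knock-in libraries and 52.1, 48.4, 72.8 and 66.4 CPM in the WT libraries (log2 fold change -1.13 ± 0.16, edgeR adjusted p = 0.00166). In each of these the groups did not overlap. Ccl3 (-1.31), Ccl4 (-1.02), Ccl2 (-0.998), Cxcl1 (-1.63), Tnf (-1.60) and Il1a (-1.30) were also called. Between 10 and 13 members were called lower with any 1 library left out, 11 in replicates 1 and 2 alone and 12 in replicates 3 and 4 alone.

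Among the genes with the smallest p of the comparison, Neat1, a nuclear RNA that builds paraspeckles (chr19:5874736-5897132), was at 51.2, 51.4, 58.5 and 70.9 CPM in the knock-in libraries and 236, 175, 197 and 180.1 CPM in the WT libraries (log2 fold change -1.77 ± 0.12, edgeR adjusted p = 4.06e-05). Per1, a clock repressor that is also an early gene, was at 84.2, 87.6, 85.1 and 111 CPM in the knock-in libraries and 239.7, 199.8, 246 and 228 CPM in the WT libraries (log2 fold change -1.31 ± 0.10, edgeR adjusted p = 4.12e-05). Id2, an inhibitor of bHLH factors, was at 54.6, 65.7, 60.2 and 96.8 CPM in the knock-in libraries and 202, 198, 228 and 202 CPM in the WT libraries (log2 fold change -1.58 ± 0.14, edgeR adjusted p = 0.000194). Knock-in replicate 4 was the highest knock-in library for all 3 genes, WT replicate 1 was the highest WT library for Neat1 and WT replicate 3 for Per1 and Id2, and the groups did not overlap. Kdm6b, a demethylase of histone H3 lysine 27, fell by 1.19 on the log2 scale (SE 0.11, edgeR adjusted p = 0.000194). Pcna, the sliding clamp of DNA replication, fell to 45.2, 48.04, 39.9 and 50.2 CPM from 96.4, 92.4, 81.7 and 77.5 CPM (log2 fold change -0.92 ± 0.09, edgeR adjusted p = 0.000241), while the other 19 of 20 tested proliferation genes were not called. In the list of clock genes 3 of 18 fell, Per1, Nr1d1 (-0.72 ± 0.13) and Bhlhe40 (-0.50 ± 0.14), and Npas2 rose (0.64 ± 0.21).

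Some of the clearest calls showed little spread in either group. Arf6, a small GTPase of membrane traffic and of phagocytosis (chr12:69418826-69420557), was at 32.5, 37.04, 31.00 and 35.95 CPM in the knock-in libraries and 76.6, 69.2, 71.2 and 67.00 CPM in the WT libraries (log2 fold change -1.06 ± 0.07, edgeR adjusted p = 4.06e-05). It overlaps the antisense transcript Gm9887 (chr12:69417258-69419242), which was also called lower (-1.61 ± 0.19), and since the strand counted is not stated, reads of the overlap cannot be assigned with certainty. Dop1b, a protein of endosome traffic (chr16:93508690-93608264), was at 29.3, 31.1, 33.2 and 35.4 CPM in the knock-in libraries and 65.4, 61.3, 63.4 and 67.8 CPM in the WT libraries (log2 fold change -1.003 ± 0.07, edgeR adjusted p = 4.06e-05). Dop1b lies on the chromosome of App, and within 10 Mb of App 12 of 93 tested genes were called (12.9%), against 8.67% of all. Mid1, a ubiquitin ligase on microtubules (chrX:168468195-168773794), rose and was at 30.4, 40.6, 30.9 and 39.3 CPM in the knock-in libraries and 11.5, 17.4, 14.9 and 15.3 CPM in the WT libraries (log2 fold change 1.27 ± 0.13, edgeR adjusted p = 0.00042). Its reads may be shared with a near-identical pseudogene. Cdr1os, the non-coding host of a circular RNA (chrX:60159705-60247391), was at 219, 261, 231 and 224 CPM in the knock-in libraries and 137, 142, 131 and 112 CPM in the WT libraries (log2 fold change 0.84 ± 0.08, edgeR adjusted p = 0.000298). Cdr1os, Dop1b and Mid1 had nearly the same log2 fold changes in replicates 1 and 2 as in replicates 3 and 4, 0.79 and 0.92, -1.07 and -0.92, and 1.35 and 1.24. Zfp248, a zinc finger gene, rose to 7.89, 9.61, 11.5 and 12.4 CPM from 2.797, 2.07, 3.34 and 2.7001 CPM (log2 fold change 1.89 ± 0.19, edgeR adjusted p = 0.000315), whereas over the 330 tested zinc finger genes 9 rose (15 without WT replicate 4) and 4 fell with a median of 0.08. The unnamed lncRNA ENSMUSG00000120462 (chr16:4291610-4293081) was at 14.5, 9.39, 13.03 and 10.9 CPM in the knock-in libraries and 3.17, 1.73, 2.06 and 3.46 CPM in the WT libraries (log2 fold change 2.17 ± 0.21, edgeR adjusted p = 0.000314). Sag, the arrestin of photoreceptors, was at 7.96, 3.96, 5.96 and 4.81 CPM in the knock-in libraries and 1.62, 1.61, 1.49 and 1.77 CPM in the WT libraries (log2 fold change 1.80 ± 0.24, edgeR adjusted p = 0.00124).

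The stress proteins did not move as 1 group. Of 18 heat shock genes 3 rose and 1 fell (median 0.10), against 3.84% called higher and 4.83% lower over all genes tested. Hspa1a, the inducible HSP70, was at 1079, 1039, 1068 and 850.0 CPM in the knock-in libraries and 22.3, 26.1, 291 and 329 CPM in the WT libraries (log2 fold change 2.59 ± 0.69, edgeR adjusted p = 0.0419). The 4 knock-in libraries lay within a narrow range, while WT replicates 1 and 2 were more than 10 times lower than WT replicates 3 and 4, and the log2 fold change was 5.48 in replicates 1 and 2 and 1.65 in replicates 3 and 4. The near-identical neighbour Hspa1b, named here because it can share reads with Hspa1a, gave a like pattern, at 1318, 1279, 1395 and 1070.0 CPM in the knock-in libraries and 4.47, 3.22, 290.3 and 345 CPM in the WT libraries (log2 fold change 2.97 ± 0.98, edgeR adjusted p = 0.0889), and kept its call in 1 of 8 leave-one-out fits. Hsph1, a partner of HSP70 that exchanges its nucleotide, was at 282, 291, 158 and 176 CPM in the knock-in libraries and 99.2, 86.4, 112 and 113 CPM in the WT libraries (log2 fold change 1.14 ± 0.18, edgeR adjusted p = 0.00279), with the same 2 WT libraries lowest. Dnajb4, a co-chaperone, fell (log2 fold change -0.89 ± 0.13, edgeR adjusted p = 0.0016).

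Of 20 genes of the endoplasmic reticulum stress response, 4 fell and none rose, against 4.83% called lower over all genes tested. Atf4, the factor of the integrated stress response, was at 104, 104, 101 and 137 CPM in the knock-in libraries and 215, 229, 223 and 219 CPM in the WT libraries (log2 fold change -0.99 ± 0.09, edgeR adjusted p = 0.000194). Herpud1, which helps remove misfolded proteins, was at 103, 102, 84.4 and 111 CPM in the knock-in libraries and 324, 314, 241 and 209.8 CPM in the WT libraries (log2 fold change -1.44 ± 0.13, edgeR adjusted p = 0.000194). Ddit3, also called CHOP, was at 14.99, 14.4, 12.8 and 14.4 CPM in the knock-in libraries and 21.4, 24.5, 23.5 and 25.8 CPM in the WT libraries (log2 fold change -0.75 ± 0.09, edgeR adjusted p = 0.00077). In these 3 genes the groups did not overlap. The chaperone gene Hspa5 fell by 0.79 on the log2 scale (edgeR adjusted p = 0.00635). The stress element of chaperone promoters (ERSE, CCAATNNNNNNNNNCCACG on either strand) was in the window of 7 of the 20 genes (35%), against 0.102% of all protein-coding promoters. Of these 7 genes only Hspa5 was called. The other 6 (Calr, Creld2, Dnajc3, Hsp90b1, Pdia6 and Syvn1) had log2 fold changes of -0.39 (Syvn1) to -0.01 (Dnajc3), and Atf4, Herpud1 and Ddit3 lacked these letters. The window of Hspa5 (chr2:34661904-34662103, plus strand) is shown with its ERSE, 67 to 49 bases before the start, and an AP-1 match farther upstream in capitals.
Hspa5: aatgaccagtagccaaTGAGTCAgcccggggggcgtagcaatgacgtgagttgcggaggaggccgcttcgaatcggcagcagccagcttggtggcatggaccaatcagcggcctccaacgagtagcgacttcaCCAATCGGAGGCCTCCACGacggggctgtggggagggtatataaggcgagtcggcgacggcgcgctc

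**Figure D3:**
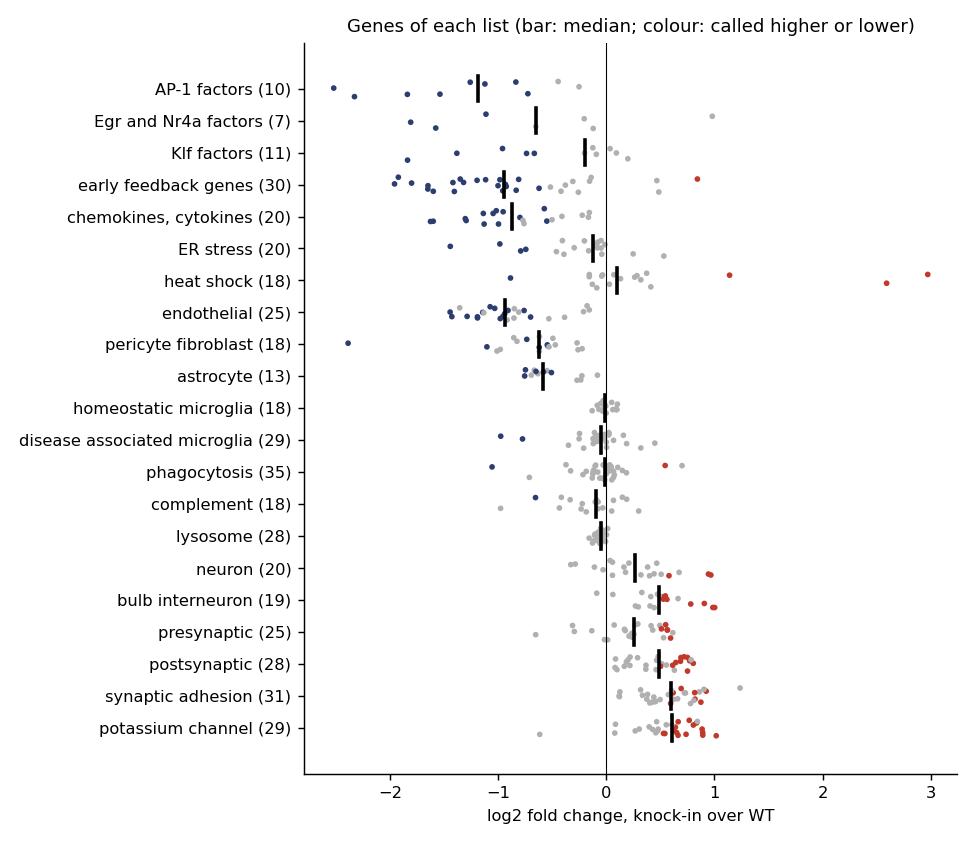
Log2 fold changes of the tested genes in 21 lists (number of genes in brackets), with genes called higher in red, called lower in blue, others in grey and the list median as a bar. Early gene, chemokine and vessel lists lie left of 0, homeostatic microglia, phagocytosis and lysosome genes lie at 0, and synapse and potassium channel genes lie to the right.

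Markers of vessels were lower in the knock-in libraries. Of 25 endothelial markers 14 fell and none rose (median -0.94), against 4.83% called lower over all genes tested. All 25 log2 fold changes were below 0. None of the 25 was at 0 in all libraries. The markers summed to 246 to 279 CPM in the knock-in libraries and 285 to 524 CPM in WT, a range that did not overlap although it nearly met at WT replicate 4. Slc2a1, the glucose transporter of the blood-brain barrier, was at 38.1, 33.9, 33.6 and 34.5 CPM in the knock-in libraries and 75.2, 67.2, 52.2 and 42.8 CPM in the WT libraries (log2 fold change -0.76 ± 0.14, edgeR adjusted p = 0.00792). Abcb1a, the efflux pump P-glycoprotein, was at 6.11, 6.23, 6.64 and 5.55 CPM in the knock-in libraries and 15.9, 25.5, 10.02 and 9.37 CPM in the WT libraries (log2 fold change -1.29 ± 0.27, edgeR adjusted p = 0.0148). Cldn5, the tight junction claudin, was at 4.997, 4.62, 6.47 and 5.25 CPM in the knock-in libraries and 11.1, 14.2, 9.95 and 6.41 CPM in the WT libraries (log2 fold change -0.96 ± 0.21, edgeR adjusted p = 0.0186). In all 3 genes WT replicates 1 and 2 were the highest, and for Cldn5 WT replicate 4 fell within the knock-in range. This difference rested on the first pair of replicates: the median was -1.36 with 20 of 25 called in replicates 1 and 2 alone, and -0.26 with 0 called in replicates 3 and 4 alone. Leaving out WT replicate 1 left 3 called, leaving out WT replicate 2 left 4, leaving out knock-in replicates 1, 2 or 4 left 5 each, leaving out knock-in replicate 3 left 9, and leaving out WT replicate 4 gave 19.

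Other lists of non-microglial cells held genes that fell, to be read beside the 4.83% called lower over all genes tested. Of 6 caveolae genes 2 fell, Cavin2 (log2 fold change -1.66 ± 0.29, edgeR adjusted p = 0.00524), a coat protein of caveolae, and Cavin1 (log2 fold change -1.09 ± 0.26, edgeR adjusted p = 0.0297), with Cavin2 at only 1.38, 1.47, 1.45 and 1.26 CPM in the knock-in libraries. Of 18 pericyte and fibroblast markers 5 fell (median -0.62), and their sum was 120.3 to 154 CPM in the knock-in and 155 to 271 CPM in WT. Among them were Vtn (log2 fold change -0.74 ± 0.13, edgeR adjusted p = 0.00486) and Rgs5 (log2 fold change -1.11 ± 0.31, edgeR adjusted p = 0.0554), a regulator of G protein signals in pericytes whose log2 fold change was -1.92 in replicates 1 and 2 and -0.09 in replicates 3 and 4. The count of 5 was 1 without WT replicate 1, WT replicate 2 or knock-in replicate 2, 2 without knock-in replicate 1 or 3, 3 without WT replicate 3 or knock-in replicate 4, and 8 without WT replicate 4, and it was 8 in replicates 1 and 2 alone and 0 in replicates 3 and 4 alone. Of 13 astrocyte markers 5 fell (median -0.58), including the filament gene Gfap (log2 fold change -0.75 ± 0.20, edgeR adjusted p = 0.0419) and Aldoc (log2 fold change -0.65 ± 0.20, edgeR adjusted p = 0.0658), while the sums overlapped at 598 to 898 CPM in the knock-in and 732 to 1357 CPM in WT. None of the 13 was called without WT replicate 1 or 2 or in replicates 3 and 4 alone, while 1 was called without knock-in replicate 3, 2 without WT replicate 3 or knock-in replicate 4, 3 without knock-in replicate 2, and 9 without WT replicate 4 or in replicates 1 and 2 alone. Of 7 markers of olfactory ensheathing cells 1 fell (Plat, -0.69 ± 0.20). In bulk libraries fewer cells of a type and less RNA per cell cannot be told apart, and the part of these cells in the fall of genes that they share with microglia was not tested.

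**Figure D4:**
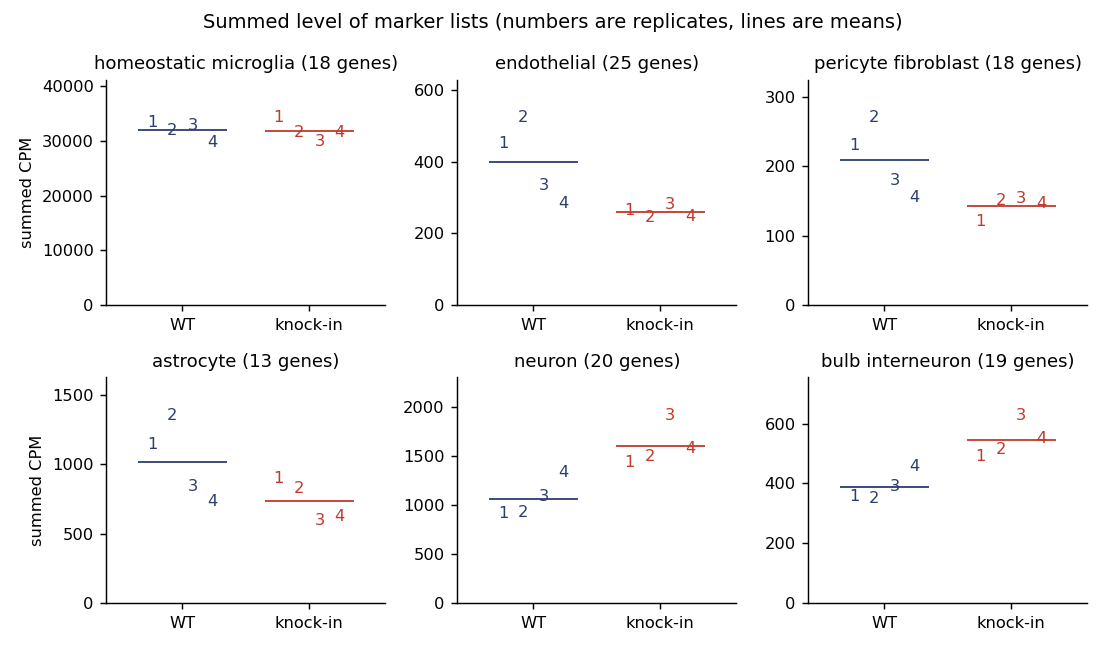
Summed CPM of 6 marker lists in each f library, axes from 0, with the replicate number as the symbol and the group mean as a line. The homeostatic microglia sums overlap between genotypes, the endothelial and pericyte sums are highest in WT replicates 1 and 2, and the neuron and bulb interneuron sums of all knock-in libraries lie above all WT libraries.

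Some genes of neurons were higher, to be read beside the 3.84% called higher over all genes tested. Of 20 general neuron markers 3 rose and none fell, with a median log2 fold change of 0.26 and 16 of 20 above 0. Their sum was 1427 to 1914 CPM in the knock-in and 914 to 1332 CPM in WT. The count of 3 was 1 without knock-in replicate 3, 2 without WT replicate 1, 5 without knock-in replicate 4 and 7 without WT replicate 4, and it was 6 in replicates 1 and 2 alone and 0 in replicates 3 and 4 alone. Syt1, the calcium sensor of synaptic vesicles, was at 84.9, 83.3, 106 and 85.4 CPM in the knock-in libraries and 53.2, 48.4, 69.2 and 69.3 CPM in the WT libraries (log2 fold change 0.58 ± 0.12, edgeR adjusted p = 0.0126). Meg3, an imprinted lncRNA, was at 413, 459.6, 653 and 499.9 CPM in the knock-in libraries and 193, 191, 248 and 403 CPM in the WT libraries (log2 fold change 0.97 ± 0.21, edgeR adjusted p = 0.0191). The knock-in libraries lay above the WT libraries in both genes, with knock-in replicate 3 highest, and WT replicate 4 lay just below the lowest knock-in library for Meg3. Markers of inhibitory interneurons of the bulb rose in 8 of 19 cases (median 0.49), and their sum was 490.1 to 629 CPM against 350.3 to 456 CPM. The count of 8 was 4 without WT replicate 1 or knock-in replicate 3, 5 without WT replicate 2, WT replicate 3 or knock-in replicate 4, and 3 in replicates 3 and 4 alone. Synpr, a vesicle protein of these cells, had the smallest p, at 13.3, 14.9, 14.6 and 14.2 CPM in the knock-in libraries and 7.02, 7.48, 7.04 and 8.94 CPM in the WT libraries (log2 fold change 0.91 ± 0.11, edgeR adjusted p = 0.000803), with a log2 fold change of 0.97 and 0.87 in replicates 1 and 2 and in replicates 3 and 4. Dlx6, a homeobox factor of GABA neurons, was at 3.88, 4.33, 5.45 and 4.51 CPM in the knock-in libraries and 1.99, 2.19, 2.42 and 2.45 CPM in the WT libraries (log2 fold change 1.002 ± 0.19, edgeR adjusted p = 0.00737). Gad1, which makes GABA (0.53 ± 0.15), and Th, the first enzyme of dopamine synthesis (0.55 ± 0.17), were called as well. Dcx, the microtubule protein of migrating neuroblasts, rose from 13.2, 14.3, 16.99 and 18.7 to 20.9, 25.3, 28.6 and 24.9 CPM (log2 fold change 0.66 ± 0.13, edgeR adjusted p = 0.0091). It was the 1 of 8 neuroblast markers called, and the median of that list was 0.15, with Cd24a at -0.43 ± 0.24 and Stmn1 at -0.19 ± 0.14. None of the 8 tested markers of bulb projection neurons was called. None of the 11 oligodendrocyte or 8 oligodendrocyte precursor markers was called either.

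Of 113 tested genes in 4 lists for synapses and potassium channels, 37 rose and none fell, against 3.84% called higher over all genes tested. The median log2 fold change was 0.50, and 107 of the 113 were above 0. By list, 5 of 25 presynaptic, 10 of 28 postsynaptic, 7 of 31 synaptic adhesion and 15 of 29 potassium channel genes rose. Grin2b, an NMDA receptor subunit, was at 93.95, 125, 155 and 131 CPM in the knock-in libraries and 58.2, 57.2, 68.8 and 111 CPM in the WT libraries (log2 fold change 0.77 ± 0.20, edgeR adjusted p = 0.0382). The groups overlapped for Grin2b, where WT replicate 4 was above knock-in replicate 1. Nlgn1, a neuroligin that binds neurexins across the synapse, was at 10.3, 11.4, 13.2 and 11.98 CPM in the knock-in libraries and 6.03, 7.71, 6.26 and 9.197 CPM in the WT libraries (log2 fold change 0.69 ± 0.15, edgeR adjusted p = 0.0166). Erc2 (0.56 ± 0.12) and Syn2 (0.56 ± 0.12), proteins of the active zone and of vesicle clusters, rose, whereas Pclo, at 0.49 ± 0.11, missed the fold change threshold. Vamp2 went the other way (-0.31 ± 0.08, edgeR adjusted p = 0.0355) and missed that threshold too. In replicates 1 and 2 alone 6 presynaptic genes were called higher and 2 lower.

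Potassium channels, which set the excitability of neurons, gave the largest share of calls of the 4 lists. Kcna1 was at 5.92, 8.51, 8.09 and 6.88 CPM in the knock-in libraries and 3.48, 3.91, 3.41 and 5.15 CPM in the WT libraries (log2 fold change 0.89 ± 0.18, edgeR adjusted p = 0.0128). Kcnq5, a channel of the M current, was at 6.64, 8.36, 9.198 and 8.14 CPM in the knock-in libraries and 4.41, 4.603, 4.41 and 5.57 CPM in the WT libraries (log2 fold change 0.77 ± 0.15, edgeR adjusted p = 0.0101). Kcnj6, a channel opened by G proteins, was at 11.97, 13.3, 14.9 and 13.7 CPM in the knock-in libraries and 6.46, 5.64, 8.104 and 10.5 CPM in the WT libraries (log2 fold change 0.80 ± 0.17, edgeR adjusted p = 0.0133). In each the groups did not overlap, and WT replicate 4 was the highest WT library. The median over the 113 genes was 0.64 in replicates 1 and 2 and 0.40 in replicates 3 and 4. The count of 37 fell to 10 without WT replicate 1, 12 without knock-in replicate 3, 13 without WT replicate 2, 22 without knock-in replicate 4, and 24 without knock-in replicate 2 or WT replicate 3, and it rose to 64 without WT replicate 4. Only 8 of the 37 were called in all 8 such fits. The neuron marker sum, with none of its 20 genes at 0 in all libraries, moved with these genes, and its part in their rise was not tested.

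Protein-coding genes called higher were long and those called lower short: the median gene span was 96.8 kb in the 385 higher genes, 13.2 kb in the 396 lower genes and 27.7 kb in all 13774 tested, and the median exonic length was 8.83, 4.81 and 6.42 kb.

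RNA levels of most genes listed for microglial functions that the study asks about moved little. The functions themselves were not measured here. In the paper's uptake assay at the same age, knock-in bulb microglia took up more labelled synaptosomes than WT microglia. Over all genes tested 3.84% were called higher and 4.83% lower, and the counts below are to be read beside these shares. Of 35 tested phagocytosis genes 1 rose (Tyro3, a receptor of dying cells, 0.54 ± 0.17) and 1 fell (Arf6), with a median of -0.02. The bridging protein Mfge8 (-0.12 ± 0.13), its integrin partner Itgav (0.05 ± 0.06) and the receptors Mertk (-0.03 ± 0.08), Axl (0.02 ± 0.15) and Trem2 (0.07 ± 0.07) were not called. Of 18 complement genes 1 fell, Cd93 (log2 fold change -0.66 ± 0.17, edgeR adjusted p = 0.0352), which is also a gene of endothelial cells. None of 28 lysosome genes was called, and their log2 fold changes ran from -0.16 (Tfeb) to 0.01 (Ctsf). Of 29 disease-associated genes of microglia 2 fell, the inhibitory receptor gene Lilrb4a at 3.68, 5.57, 4.17 and 6.88 CPM in the knock-in libraries and 7.64, 9.09, 12.9 and 10.3 CPM in the WT libraries (log2 fold change -0.98 ± 0.21, edgeR adjusted p = 0.0178) and the growth factor gene Csf1 at 47.01, 47.9, 38.9 and 73.8 CPM in the knock-in libraries and 71.8, 68.6, 104 and 110.5 CPM in the WT libraries (log2 fold change -0.78 ± 0.19, edgeR adjusted p = 0.0333). The groups overlapped for Csf1 at knock-in replicate 4 and not for Lilrb4a. The median log2 fold change of the 29 genes was -0.05. Lpl, lipoprotein lipase, was at an adjusted p of 0.0192 in edgeR but its log2 fold change, 0.45 ± 0.10, was under the threshold. Apoe (-0.12 ± 0.11), Cst7 (0.32 ± 0.16), Clec7a (-0.12 ± 0.14) and Itgax (-0.11 ± 0.11) were not called.

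Of 9 tested genes of noradrenaline receptors and breakdown 1 fell and 1 rose, with a list median of -0.06. Over all genes tested 4.83% were called lower and 3.84% higher, so 2 calls do not describe the list. Adrb1, the beta-1 receptor, was at 25.4, 22.2, 26.1 and 26.9 CPM in the knock-in libraries and 54.01, 29.1, 49.8 and 34.2 CPM in the WT libraries (log2 fold change -0.74 ± 0.17, edgeR adjusted p = 0.0196). Adra1a, an alpha-1 receptor, was at 10.4, 12.1, 16.6 and 15.6 CPM in the knock-in libraries and 6.09, 5.06, 6.68 and 11.6 CPM in the WT libraries (log2 fold change 0.88 ± 0.23, edgeR adjusted p = 0.0406). The groups did not overlap for Adrb1 and overlapped for Adra1a. Of 15 antigen presentation genes 1 was called, H2-K1, which fell (log2 fold change -0.62 ± 0.15, edgeR adjusted p = 0.03). All 15 log2 fold changes were below 0 (median -0.35), and 8 were called lower without knock-in replicate 2, against 0 without knock-in replicate 1. None of 23 interferon-stimulated, 19 cholesterol, 10 border macrophage, 9 monocyte, 9 neutrophil, 3 lymphocyte or 9 mitochondrial genome genes was called, and all 7 red blood cell genes were below the count filter.

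Genes of RNA handling fell in part. Of 30 splicing factors 7 fell and none rose, and in 17 the knock-in libraries were all below the WT libraries. Over all 18474 genes tested, 4.83% were called lower and 1475 lay wholly below. Clk1, a kinase of splicing factors, was at 199, 208, 204 and 246 CPM in the knock-in libraries and 384, 384, 365 and 351 CPM in the WT libraries (log2 fold change -0.79 ± 0.07, edgeR adjusted p = 0.000194). Srsf6 (log2 fold change -0.57 ± 0.07, edgeR adjusted p = 0.000841) and Srsf2 (log2 fold change -0.51 ± 0.06, edgeR adjusted p = 0.000752) code for SR proteins and fell by little more than the threshold. Rpl22l1 (log2 fold change -1.13 ± 0.19, edgeR adjusted p = 0.00456) was the 1 ribosomal protein gene of 83 to be called. Snhg1, a host of small nucleolar RNAs, was the 1 of 14 such hosts (log2 fold change -0.999 ± 0.18, edgeR adjusted p = 0.00529). Of 62 clustered histone genes 9 fell and none rose, led by H4c1 (-1.17 ± 0.16), H3c1 (-1.70 ± 0.24) and H1f2 (-1.07 ± 0.15). Histone copies are near-identical, so counts could be split among them.

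Non-coding transcripts were called in a larger share than genes for proteins. Of 13774 protein-coding genes 385 rose and 396 fell (5.67% called). Of 2111 lncRNAs 92 rose and 355 fell (21.2% called), and of 1171 transcripts of the class TEC, which the annotation lists as awaiting experimental evidence, 167 rose and 78 fell (20.9% called). The 355 lncRNAs summed to 1057, 1389, 1023 and 1610.5 CPM in the knock-in libraries and to 3572, 3241, 2759.8 and 2560.2 CPM in the WT libraries. Every knock-in library was below every WT library. These 355 were picked as called lower in the same libraries, so their sum and medians do not test a fall of lncRNAs. Their median log2 fold change was -1.33, with -1.52 in replicates 1 and 2 and -1.03 in replicates 3 and 4. In all 8 leave-one-out fits 213 of them were called. Over all 2111 tested lncRNAs the median was -0.09, with -0.10 in replicates 1 and 2 and -0.07 in replicates 3 and 4.

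Where these transcripts lie differed between the directions. Of the 355 lncRNAs called lower 156 (43.9%) start within 1.0 kb of the start of a protein-coding gene on the other strand, against 15 of the 92 called higher (16.3%) and 663 of the 2111 tested (31.4%). Such pairs start close together on opposite strands, and the 2 transcripts can overlap, as Gm9887 and Arf6 do. Since the strand counted is not stated, reads of an overlap cannot be assigned with certainty. Of 154 protein-coding partners that were tested 17 were called lower (11.04%) and none higher, with a median log2 fold change of -0.07. Among the partners of all tested lncRNAs 27 of 627 were called lower (4.31%), with a median of -0.04. Gm9887 and Arf6 are one such pair in which both fell. The partner of 4933406P04Rik (-2.12 ± 0.23) is Bclaf1 (-0.06 ± 0.07), and that of Gm29170 (-1.49 ± 0.18) is Ro60 (0.09 ± 0.09), which were not called. These pairs were chosen after their values were seen. TEC entries called higher lay inside a protein-coding gene and on its strand in 143 of 167 cases (85.6%), against 32 of 78 called lower (41.0%) and 889 of 1171 tested (75.9%). Of the 88 tested host genes of the TEC entries called higher, 19 were themselves called higher, and the median of the hosts was 0.24. Over all genes tested 3.84% were called higher. These hosts were reached only through entries already called higher. Whether an entry and its host draw on reads of the same transcript was not tested.

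The m libraries, in which the same genotypes were compared in males, share no library with the f libraries. Of the 709 genes called higher 695 were tested in the m libraries and 661 (95.1%) had the same sign there, with a median of 0.47. Of the 893 called lower 871 were tested and 737 (84.6%) had the same sign, with a median of -0.51. Over all 17938 genes tested in both, 65.9% had the same sign. Few of these were called in males: the m comparison alone called 4 of 18351 genes (0.0218%; 1824 at an unadjusted p under 0.05), which were Cdr1os, Dop1b, Mid1 and G530011O06Rik. In that fit the log2 fold changes were 1.08 for Cdr1os, -0.88 for Dop1b and 2.44 for Mid1. For Fos it was -0.70, for Neat1 -0.76 and for Ier2 -0.79, in the same direction as in females, and the difference between the sexes was not called for any of these 6 genes.

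The difference between the contrasts was tested for each gene in a fit of all 4 groups. Of 18474 genes 5 were called (0.0271%), with 1106 at an unadjusted p under 0.05. They were Cavin2 (log2 difference f minus m -3.09 ± 0.42, edgeR adjusted p = 0.0139), Abcb1a (-2.58 ± 0.38, 0.0229), Alpl (-3.17 ± 0.54, 0.0897), Nr1d1 (-1.06 ± 0.18, 0.0934) and Cavin1 (-1.96 ± 0.35, 0.0978). Alpl is the tissue-nonspecific alkaline phosphatase found in brain vessels, so 4 of the 5 are genes of vessels, and Nr1d1 is a repressor of the clock. In each, the knock-in was lower in the f and higher in the m libraries. The endothelial list as a whole had a median of -0.94 in the f and 0.86 in the m libraries. Its sum, scaled over all 16 libraries, was 249 to 283 CPM in female and 249 to 321 CPM in male knock-in libraries, and 288 to 527 CPM in female and 217 to 231 CPM in male WT libraries. The knock-in ranges of the sexes overlapped and the WT ranges did not. No early gene, synapse gene or potassium channel gene was called for a difference between f and m. The count of 5 was 81 in DESeq2, 61 without WT f replicate 4 and 39 without WT f replicate 3, and between 2 and 7 without any other library.

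**Figure D5:**
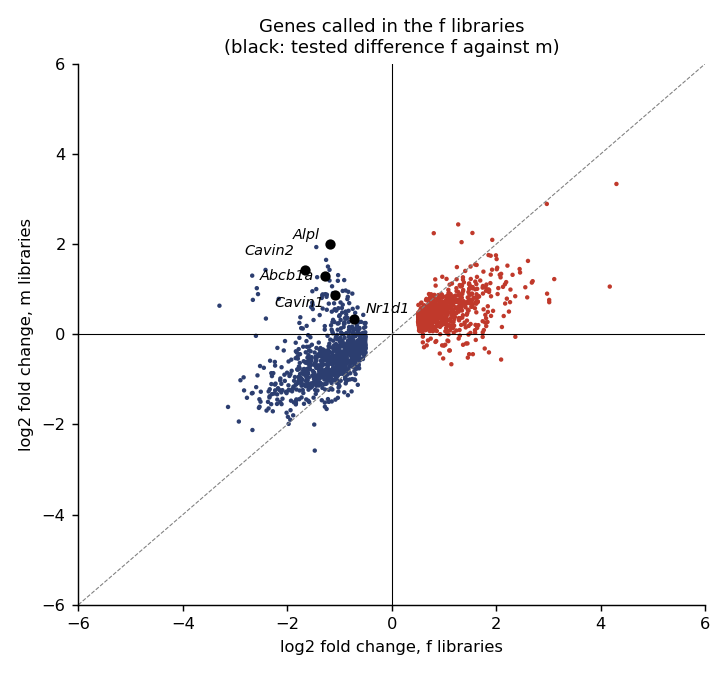
Log2 fold change of knock-in over WT in the m libraries (vertical axis) against that in the f libraries (horizontal axis) for genes called in the f libraries and tested in both, with genes called higher in red and lower in blue, the 5 genes called for the difference in black and the line of equality dashed. Most points lie on the same side of 0 on both axes and below the line in size, and the 5 marked genes lie at the upper left.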

How the data were processed

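RNA of bead-isolated olfactory bulb microglia was sequenced in 16 libraries, of which the 8 f libraries were compared. The authors aligned reads with STAR 2.7.8 to GRCm39 with gencode M32, to which they had joined human App, and deposited raw counts per gene that were not normalized. The strand counted is not given in the sources used here. Analyses used R 4.3.3, edgeR 4.0.16, limma 3.58.1 and DESeq2 1.42.0. Genes for which 4 or more of the 8 libraries had 5 counts or more (18474, holding 99.9% of counts) were normalized by TMM and tested with glmQLFit and glmQLFTest, with knock-in against WT and no covariate. Calls needed an FDR (Benjamini-Hochberg) under 0.1 and a log2 fold change over 0.5 in size. Standard errors were obtained by dividing the size of the log2 fold change by the square root of F. The difference between f and m came from a fit of 4 groups. The procedure was checked on simulated data. Positions and classes came from gencode M39, which matched 18116 of the tested genes (98.1%).

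Named genes were the 6 higher and 6 lower called genes and the 8 higher and 8 lower protein-coding genes of smallest p, the 3 members of smallest p in each of 46 lists, App, Dop1b, Mid1, and genes called for the difference between f and m (at most 10). Other genes were named after their values were seen. The comparison, lists and tests were chosen with earlier results of these data known. Alternatives were other normalizations, filters and thresholds, DESeq2, limma voom, a replicate block, each pair of replicates alone (1 and 2, 3 and 4) or as a term, and leaving out each library. A few results that needed items withheld from the text are not reported here.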

Additional observations from a re-analysis of the deposited data

Results flagged for a closer look

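Within groups of 4 libraries, 21 of 380 sets of values had 1 library far from the other 3, where the gap to the nearest library over the whole range was above Dixon's critical value at the 95% level. Chance gives about 1 in 20 such sets. Knock-in replicate 4 was far above the other 3 knock-in libraries for Egr2 (gap over range 0.943), Atf4 (0.909) and Per1 (0.873), and far below them for Ugt8a (0.899). Knock-in replicate 3 was highest for Syt1 (0.907) and for the presynaptic list (0.853), and lowest for Cav1 (0.939) and F3 (0.841). Knock-in replicate 2 was highest for the clustered histone list (0.902) and for Ifi27l2a (0.835), and lowest for the oligodendrocyte precursor list (0.981). Knock-in replicate 1 was highest for the ribosomal protein list (0.836). WT replicate 1 was highest for P2ry13 (0.885). WT replicate 2 was highest for Atf3 (0.925), Rps13 (0.913) and Ltf (0.907). WT replicate 3 was highest for Id2 (0.872). WT replicate 4 was highest for Dlg2 (0.884), the monocyte list (0.838) and Kcnq5 (0.832), and lowest for Ugt8a (0.832).

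The genotype difference was tested between the f and the m libraries, and 5 genes passed. The log2 difference, f minus m, was -3.09 for Cavin2, -2.58 for Abcb1a, -3.17 for Alpl, -1.06 for Nr1d1 and -1.96 for Cavin1. In the f libraries Cavin2 was at 1.38, 1.47, 1.45 and 1.26 CPM in the knock-in libraries and 4.35, 7.25, 2.84 and 3.54 CPM in the WT libraries. Alpl was at 1.05, 0.6602, 1.11 and 0.518 CPM in the knock-in libraries and 2.73, 1.96, 1.56 and 1.27 CPM in the WT libraries, levels that rest on few counts, and it kept its call for knock-in against WT in 4 of 8 leave-one-out fits.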

How the results depend on the processing

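Against 1602 called genes (709 higher, 893 lower), other normalizations, DESeq2, limma voom, a robust dispersion, a fit of the 4 groups and the FDR alone kept each count within 1.5 times. An FDR of 0.05 gave 1000 genes (345 higher), a test against the fold threshold 366 (53 higher, 313 lower), no count filter 1143 higher and 10 counts in every library 448 higher. Replicates 1 and 2 alone gave 1156 higher, and replicates 3 and 4 alone gave 368 (87 higher, 281 lower), while a term for these 2 pairs gave 1135 higher. Leaving out 1 library gave 788 (without WT replicate 1) to 2514 (without WT replicate 4) called genes, 224 to 1415 higher and 564 to 1099 lower over the same libraries. Without WT replicate 2 the totals were 951 and without knock-in replicate 3 they were 845. The higher count was also 308 without WT replicate 2, 232 without knock-in replicate 3, 418 without WT replicate 3 and 437 without knock-in replicate 4. For the difference between f and m, DESeq2 gave 81 genes, the replicate block 3, and leaving out 1 library 2 to 61. Lower calls outnumbered higher ones in the main count, but not with library totals only (796 higher, 711 lower), without a count filter (1143 and 1120), with the replicate block, with a term for the pairs (1135 and 1072), in replicates 1 and 2 alone (1156 and 1117), without knock-in replicate 1 (716 and 665) or without WT replicate 4 (1415 and 1099). No called gene named in the report changed its direction under an alternative. Several list medians near 0 did: heat shock genes went from 0.10 to -0.05 in replicates 3 and 4 alone, phagocytosis from -0.02 to 0.006 and homeostatic markers from -0.02 to 0.006 in replicates 1 and 2 alone.

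Same-numbered knock-in and WT libraries deviated together only weakly (correlations 0.138, 0.0998, 0.0877 and 0.0433 over genes; 3 of 4 knock-in libraries correlated best with their own number), so the numbers were not taken as pairs. With the replicate block 1999 genes were called, 1013 higher and 986 lower.

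Of the genes named in the text, the call was lost without 1 library only for Syn2 (WT replicate 2), Syt1 (knock-in replicate 3), Cavin1 and Erc2 (WT replicate 1) and H2-K1 (knock-in replicate 1). It was kept in 5 of 8 fits for Cd93, Grin2b and Gfap, which lost it without WT replicate 1, WT replicate 2 or knock-in replicate 3. Those 3 libraries and WT replicate 3 each ended the call of Adra1a, and those 3 and knock-in replicate 4 that of Gadd45g. Gad1, Th and Aldoc lost it without any of the 3, WT replicate 3 or knock-in replicate 4. Tyro3 lost it without any of the 3, WT replicate 3 or knock-in replicate 2. Rgs5 and Plat lost it without WT replicate 1 or 2 or knock-in replicate 1, 2 or 4. Alpl lost it without WT replicate 1 or 2 or knock-in replicate 2 or 4, Srsf2 without knock-in replicate 1 or 2 or WT replicate 1 or 3, and Bhlhe40 without knock-in replicate 1 or 3 or WT replicate 2 or 4. Npas2 kept it in 2 of 8 fits (without WT replicate 3 or 4) and Hspa1b in 1, without WT replicate 4.

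Totals of 9052932 to 17369899 counts limit genes near the floor of 0.173 to 0.331 CPM. Precision depends more on the spread between libraries, as for Hspa1a (SE 0.69) against Dop1b (SE 0.07). Nothing here separates genotype from other differences between the cell preparations of the 2 groups, which the labels do not describe.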

Other observations

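Called genes were spread over the genome: the share called in the f libraries ran from 6.19% of the tested genes on chromosome 19 to 11.8% on chromosome 12. The X chromosome lay within this range. On it 31 genes rose and 16 fell, against 709 (3.84%) and 893 (4.83%) over all genes tested. This split was not tested. Within 10 Mb of App, on chromosome 16, the 12 called genes were Mir99a, Btg3, Ncam2, Cyyr1, Adamts1, Grik1, 4930404I05Rik, Slc5a3, Rcan1, Dop1b, Gm48978 and Kcnj6. Grik1 and Kcnj6 are also members of the synapse and potassium channel lists. Dop1b had the smallest p of the 12 and fell (-1.003 ± 0.07). Ncam2, a cell adhesion molecule of olfactory axons, was at 12.8, 14.9, 14.4 and 13.9 CPM in the knock-in libraries and 8.89, 11.05, 10.02 and 9.53 CPM in the WT libraries (log2 fold change 0.51 ± 0.11, edgeR adjusted p = 0.0132). Rcan1, an inhibitor of calcineurin, was at 53.3, 60.3, 42.3 and 62.8 CPM in the knock-in libraries and 91.6, 63.98, 104 and 96.1 CPM in the WT libraries (log2 fold change -0.70 ± 0.14, edgeR adjusted p = 0.0126). Btg3, an antiproliferative factor, was at 4.08, 3.74, 3.49 and 3.92 CPM in the knock-in libraries and 7.71, 5.87, 5.900 and 4.13 CPM in the WT libraries (log2 fold change -0.64 ± 0.19, edgeR adjusted p = 0.067). These genes were chosen by position after their values were seen.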
